A study of Mus musculus with 2 samples.

Results

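The cells described here are arterial endothelial cells of chimeric mouse lungs, the cells that line the inside of the arterial side of the lung circulation. A cell was counted as arterial when it held at least 1 unique molecular identifier (UMI, one counted RNA molecule) of Cdh5, the endothelial cadherin, and at least 1 UMI of 2 or more of the 4 genes Gja5, Bmx, Fbln2 and Olfm2. It also had to hold fewer than 3 of the 6 venous genes Slc6a2, Prss23, Selp, Cytl1, Car8 and Cpe, and at most 4 UMIs of Col1a1 and Col3a1 together. Of 8297 cells that passed the filters (at least 1000 UMIs and under 7% of them mitochondrial), 223 met this rule: 177 of 4945 in the donor library and 46 of 3352 in the recipient library. The members were thus chosen by their own counts, and the levels of the genes in the rule are given as a description.

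The study sorted cells from chimeric C57Bl mouse lungs, taken 6 months after the mice had received a transplant of single cells carrying the red fluorescent protein TdTom. The lungs of 3 mice were dissociated and pooled, and cells negative for the leukocyte marker CD45 were sorted into a td-tomato positive donor library and a td-tomato negative recipient library. Both libraries were made with the 10x Genomics droplet platform. The strain of the donor cells, the age of the mice and any conditioning before transplant are not given in the sources used here. All cells of both libraries come from the same 3 lungs, so donor and recipient arterial cells shared their hosts. Each group is 1 library of pooled animals, so no difference has a replicate check and no p-value or standard error is given. The intervals are exact 95% intervals, and they cover counting error only.

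Arterial endothelium takes its identity early in vessel development, when VEGF signalling raises Notch activity, and the Notch targets of the Hey family and the SOXF transcription factors keep it apart from venous endothelium. Arterial cells are coupled by gap junctions made of the connexins Gja5 and Gja4, carry ephrin-B2 on their surface, and lay down the elastic fibres of the inner vessel wall. In the lung, the arteries divide down to arterioles that feed a capillary bed of 2 endothelial kinds, the general capillary cells and the aerocytes, the large thin cells that face the air spaces.

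The donor library held 37997269 UMIs in 6319 barcodes and the recipient library 26201315 UMIs in 3784 barcodes. The arterial cells held 1395198 and 347230 UMIs. Their median depth was 6461 UMIs for donor and 6355.5 for recipient cells, with ranges of 1566 to 37649 and 2734 to 19903. The libraries shared 816 cell barcodes. Only the copy with more UMIs was kept, and 3 donor and 7 recipient arterial cells carry a shared barcode. Levels are given as counts per 1000000 UMIs (CPM) summed over the arterial cells of a library. CPM counts 3' tags, so a level compares a gene between groups of cells and not genes with each other.

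Among Cdh5-positive cells, the arterial share was 3.72% in the donor library (177 of 4756, interval 3.2 to 4.3) and 3.02% in the recipient library (46 of 1523, interval 2.22 to 4.01), and the intervals overlap. The order of the libraries was the other way at even depth, on few cells. When every cell was thinned to 2000 UMIs before the rule was applied, 56 of 4508 donor cells (1.24%) and 23 of 1300 recipient cells (1.77%) met it. The sort and the pooling cannot be told apart from any difference in the arterial share.

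The rule genes were spread unevenly over the cells. Gja5 (GRCm38 chr3:96904693-97077416), a connexin of arterial gap junctions, was detected in 87% of donor and 78.3% of recipient arterial cells. Its level was 254 CPM in donor and 204 CPM in recipient cells. Bmx (chrX:164192842-164258193), a tyrosine kinase of the TEC family expressed in arterial endothelium, was detected in 73.4% and 84.8%, at 172 and 228 CPM. Fbln2 (chr6:91212455-91272540), an extracellular matrix protein that binds elastic fibres, was detected in 40.1% and 52.2% of the cells. Its level was 186 CPM in donor and 651 CPM in recipient cells, but 136 of the 226 recipient UMIs lay in 3 cells. Olfm2 (chr9:20667690-20746349), a secreted olfactomedin-domain protein, was detected in 36.7% and 32.6%, at 202 and 219 CPM.

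Most cells met the rule narrowly. Exactly 2 of the 4 genes were detected in 124 donor and 31 recipient arterial cells, 3 in 40 and 8, and all 4 in 13 and 7. Just outside the rule, 558 donor and 120 recipient Cdh5-positive cells held exactly 1 of the genes and met its other conditions. A further 4 donor and 6 recipient cells were left out for 3 or more venous genes, and 5 recipient cells for collagen.

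Atp13a3 (chr16:30312423-30405975) is a transport ATPase that moves polyamines into cells, and its human gene is linked to pulmonary arterial hypertension. It was not in the rule, but it is a listed marker of these cells, chosen with earlier results of these data known. It is thus not an independent check of the label. It stood at 505 CPM in donor arterial cells (interval 469 to 544) and at 605 in recipient arterial cells (interval 526 to 692). General capillary cells held 27.9 and 37.6 CPM, venous cells 7.25 and 7.7, and aerocytes 9.13 and 10.1. In the arterial cells 59.3% and 56.5% had an Atp13a3 UMI, against 5.63% and 7.76% of general capillary cells, whose median depth was 5314 and 5611 UMIs. Thinned to 2000 UMIs per cell, the shares were 40.6% and 43.5% in arterial against 2.66% and 3.31% in general capillary cells. Cells that passed with exactly 2 rule genes held 311 and 282 CPM of Atp13a3, while those just outside with 1 held 73.7 and 71.3 CPM. The gene was highest in arterial cells in both libraries, and its level dropped across the edge of the rule without reaching that of general capillary cells. The 8 pan-endothelial markers, among them Pecam1, Cldn5 and Kdr, were all measured and summed to 11806 and 10613 CPM in arterial cells, against 12979 and 12446 in general capillary cells.

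The promoters of the 4 rule genes are shown because these genes define the cells. The sequences are the 150 bases before the RefSeq transcription start on GRCm38.p6, on the gene's strand, 5′ to 3′. Capitals mark matches to ACAAT, a core of SOX binding sites, to TGGGAA, a core of RBPJ (Notch) sites, or to CCACCC, a core of KLF sites, on either strand, so that ATTGT and GGGTGG are the same cores read from the other strand.
Gja5, chr3:97032252-97032401, plus strand: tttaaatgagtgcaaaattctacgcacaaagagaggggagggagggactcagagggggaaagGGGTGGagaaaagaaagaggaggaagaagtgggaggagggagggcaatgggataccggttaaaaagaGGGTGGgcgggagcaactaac
Bmx, chrX:164258194-164258343, minus strand: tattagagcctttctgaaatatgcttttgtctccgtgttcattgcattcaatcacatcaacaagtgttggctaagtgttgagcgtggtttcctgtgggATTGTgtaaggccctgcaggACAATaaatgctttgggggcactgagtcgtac
Fbln2, chr6:91212614-91212763, plus strand: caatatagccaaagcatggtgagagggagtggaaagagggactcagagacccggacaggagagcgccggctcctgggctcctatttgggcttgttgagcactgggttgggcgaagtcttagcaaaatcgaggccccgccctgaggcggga
Olfm2, chr9:20746297-20746446, minus strand: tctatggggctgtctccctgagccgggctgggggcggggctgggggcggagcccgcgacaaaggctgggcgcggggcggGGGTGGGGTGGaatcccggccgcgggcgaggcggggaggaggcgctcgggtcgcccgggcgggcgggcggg
Gja5 and Olfm2 carry KLF cores, those of Olfm2 overlapping each other, Bmx carries a pair of SOX cores, and Fbln2 holds none of the 3 motifs in this window. The RefSeq start of Gja5 lies 127709 bases inside the annotated gene, so this promoter belongs to 1 of its starts. Of the 20 genes that led the arterial cells over the other endothelial classes, 13 had a promoter in the RefSeq table, and over 250 bases the KLF core was found in 6 of them, the SOX core in 3 and the RBPJ core in 3. Among all 6610 measured genes with a promoter, 32.7% held the KLF core, 16.9% the SOX core and 19.9% the RBPJ core. A match is a description of letters and not of binding.

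The other endothelial cells of the same libraries served for comparison. Venous cells had 3 or more of the 6 venous genes (124 donor, 87 recipient). General capillary cells had 2 or more of Gpihbp1, Plvap, Kit and Aplnr (2362 and 425), and aerocytes 3 or more of Car4, Ednrb, Fibin and Apln (1705 and 646). All 3 classes also needed Cdh5, the collagen limit and fewer than 2 of the arterial rule genes. General capillary cells and aerocytes needed fewer than 3 venous genes, and general capillary cells fewer than 2 of the aerocyte genes. Cells just outside the arterial rule could thus be counted in these classes, also in the Atp13a3 comparison above. Of 8318 genes with at least 20 UMIs in the arterial cells, 51 (0.613%) were at least 2-fold higher in arterial cells than in each of the 3 other classes in both libraries. Against single classes, 125 (1.5%) were at least 2-fold higher than in general capillary cells, 248 (2.98%) than in venous cells and 780 (9.38%) than in aerocytes. In the other direction 29 genes (0.349%) were at least 2-fold lower than in general capillary cells, 121 (1.45%) than in venous cells and 296 (3.56%) than in aerocytes. By these counts the arterial cells stood nearest to general capillary cells. The arterial rule itself takes part in every one of these contrasts, so the counts describe the cells.

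The 20 leading genes, ranked by the smallest of their ratios to the other classes, were Olfm2, Fbln2, Atp13a3, Bmx, Slc45a4, Gja5, Psen2, Cdkn1c, Mecom, Plac8, Sulf1, Cxcl12, Pcsk5, Trim47, Plat, Gata6, Rgs3, Cxcr4, Mgp and Nxn. Cxcl12 (chr6:117168535-117181367), the chemokine ligand of Cxcr4, stood at 1653 CPM in donor and 1463 CPM in recipient cells. It was detected in 86.4% and 89.1% of arterial cells and exceeded general capillary cells 3.57-fold (donor) and 2.74-fold (recipient). Its receptor Cxcr4 stood at 260.2 and 288 CPM, 1.89-fold (donor) and 2.59-fold (recipient) over general capillary cells. Ligand and receptor were both higher in the arterial cells than in each of the 3 other classes, an order set by the ranking that named them.

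Several leading genes act on transcription, growth or processing of signalling proteins. Psen2, a catalytic subunit of the gamma-secretase that cleaves Notch, stood at 219 CPM in donor and 259 CPM in recipient cells, 5.57-fold (donor) and 5.05-fold (recipient) over general capillary cells. Mecom, a zinc finger transcription factor of arterial endothelium, stood at 147 and 153 CPM, 2.99-fold (donor) and 4.53-fold (recipient) over general capillary cells. Cdkn1c, an inhibitor of cyclin-dependent kinases, stood at 108 and 169.9 CPM, 3.4-fold (donor) and 3.31-fold (recipient) over them. All 3 genes were higher in arterial cells than in each other class in both libraries, an order set by the ranking that named them. Gata6, a zinc finger factor of the GATA family, stood at 193 and 153 CPM, 3.21-fold (donor) and 2.25-fold (recipient) over general capillary cells. Slc45a4, a member of the solute carrier family, stood at 171 and 129.6 CPM, 7.07-fold (donor) and 7.51-fold (recipient) over general capillary cells.

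Plac8, a small cysteine-rich protein, stood at 454 CPM in donor and 861 CPM in recipient cells, 4.84-fold (donor) and 2.92-fold (recipient) over general capillary cells. Trim47, Rgs3 and Nxn were between 1.83- and 3.62-fold over them.

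A further set is secreted or acts outside the cell. Sulf1, which removes sulfate from heparan sulfate chains, stood at 128 CPM in donor and 204 CPM in recipient cells, 2.78-fold (donor) and 8.84-fold (recipient) over general capillary cells. Pcsk5, a proprotein convertase, stood at 235 and 259 CPM, 2.65-fold (donor) and 5.6-fold (recipient) over them. Plat, the tissue plasminogen activator, stood at 344 and 481 CPM, 2.56-fold (donor) and 3.43-fold (recipient) over them. Mgp (chr6:136872435-136875823), matrix Gla protein, an inhibitor of vessel calcification, had the largest ratio to donor general capillary cells among the leading genes outside the rule. It stood at 378 CPM in donor and 1411 CPM in recipient cells. It was 60.3-fold (donor) and 10.9-fold (recipient) over general capillary cells but 1.87-fold over venous cells in both. It lay in few cells: 24 donor arterial cells had a Mgp UMI and 3 of them held 333 of 528 UMIs, while in the recipient library 3 of 28 positive cells held 399 of 490.

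**Figure D1:**
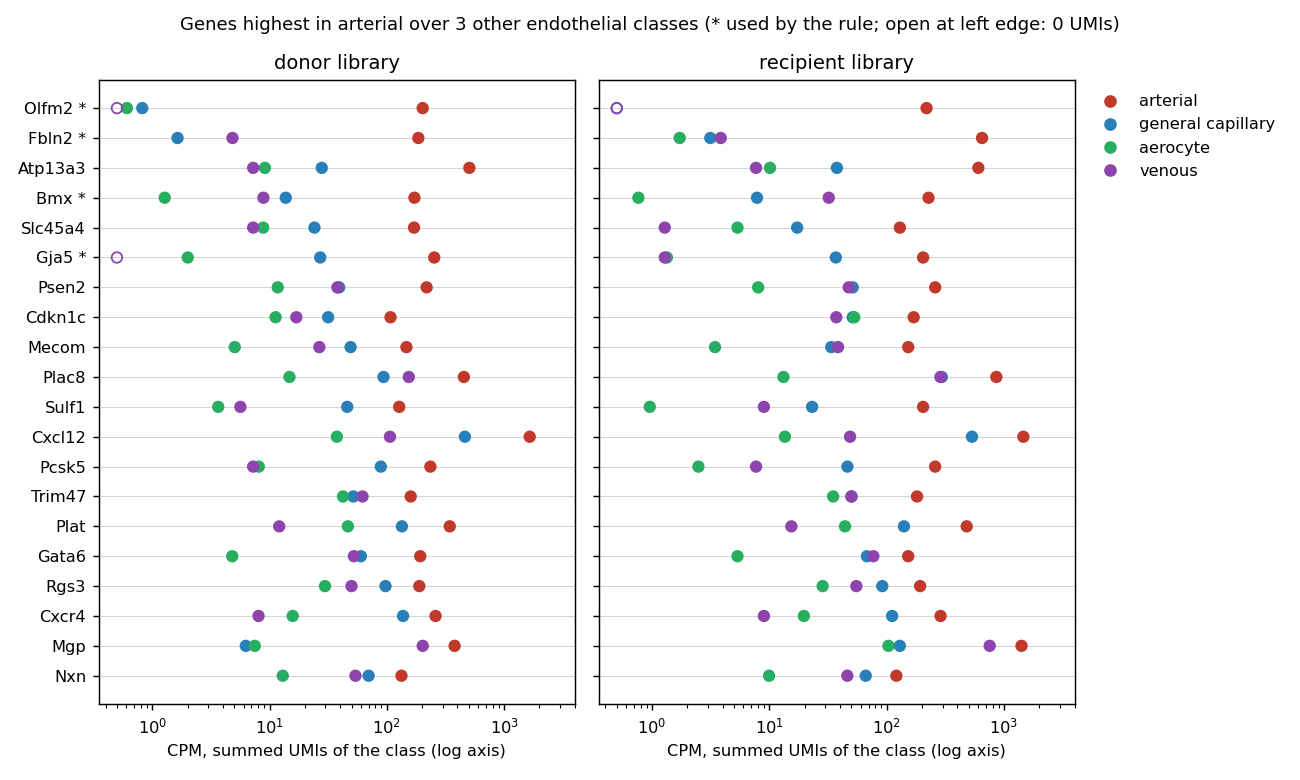
Level of the leading arterial genes (CPM, log axis) in arterial, general capillary, venous and aerocyte cells of the donor and recipient libraries, 1 point per class and library; stars mark genes of the rule and open circles 0 UMIs. The arterial points lie to the right of the other classes in both libraries, an order set by the ranking that named the genes. Atp13a3, a listed marker of these cells that was not in the rule, lies 18.1- and 16.1-fold over general capillary cells.

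Genes linked to arterial identity divided into those held by arterial cells above all and those shared with general capillary cells. The Notch target Hey1 stood at 324 CPM in donor and 360.0 CPM in recipient cells, 1.28-fold (donor) and 1.99-fold (recipient) over general capillary cells. Sema3g, a semaphorin of arterial endothelium, stood at 422 and 348 CPM, 1.15-fold (donor) and 1.36-fold (recipient) over them. The connexin Gja4 stood at 847 and 622 CPM (1.48-fold (donor) and 1.32-fold (recipient)), ephrin-B2 (Efnb2) at 743 and 585 (1.78-fold (donor) and 1.68-fold (recipient)). The Notch ligand Dll4 stood at 467 and 372 CPM (1.37-fold (donor) and 1.85-fold (recipient)), and Notch1 at 457 and 363 (1.4-fold (donor) and 1.2-fold (recipient)). Sox17, a SOXF factor of arterial specification, was lower in arterial than in general capillary cells, at 214 and 169.9 CPM, 0.686-fold (donor) and 0.466-fold (recipient) of their level. None of these 7 genes reached 2-fold over general capillary cells in both libraries. Of the 27 measured genes of the arterial identity list 9 did, among them Mecom, Cxcl12, Plat, Slc45a4 and Atp13a3, and 7 were 2-fold over all 3 other classes. Over all 8318 genes these shares were 1.5% and 0.613%. The list was chosen with earlier results of these data known, so the counts are a description.

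Hey1 and Sema3g together were detected in 71.2% of donor and 73.9% of recipient arterial cells, and in 47.9% and 35.5% of general capillary cells. Aerocytes held both in 5.75% and 1.24% of cells and venous cells in 2.42% and 1.15%, at greater median depths of 9142 and 7761 UMIs for aerocytes and 9356.5 and 8178 for venous cells. The pair thus set arterial and general capillary cells apart from the rest, more than it set arterial cells apart from general capillary cells.

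The arterial cells were not uniform. The most frequent combination was Gja5 with Bmx and neither Fbln2 nor Olfm2, in 77 of 177 donor cells (43.5%, interval 36.1 to 51.1) and 21 of 46 recipient cells (45.7%, interval 30.9 to 61.0). The other 100 donor and 25 recipient cells had Fbln2, Olfm2 or both. Median depth was 7141.5 UMIs with and 5833 without in the donor library, and 6362 and 6195 in the recipient library. The split rests on detection of sparse genes, so some cells without a UMI of either gene may express them. Of 5351 genes with at least 50 arterial UMIs, 68 (1.27%) were at least 2-fold higher in the cells with Fbln2 or Olfm2 in both libraries and 18 (0.336%) were at least 2-fold lower. The 68 include Fbln2 and Olfm2, which define the split.

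Among the genes higher with Fbln2 or Olfm2, Mgp stood at 612 CPM with and 5.58 without in donor cells, and 2377 and 108 in recipient cells, with most of its UMIs in 3 cells of each library. The donor cells without Fbln2 or Olfm2 were at the general capillary level of 6.28 CPM, from 3 UMIs. The recipient cells without either gene were near their general capillary level of 129 CPM, from 16 UMIs. Fbln5, which links elastic fibres to cells, stood at 140.0 CPM with and 7.43 without in donor cells, and 522 and 0 in recipient cells. The adhesion receptor Vcam1 stood at 220.5 CPM with and 14.9 without in donor cells, and 702 and 115 in recipient cells. Apoe, the lipid carrier, stood at 319.6 CPM with and 14.9 without in donor cells, and 1194 and 122 in recipient cells, and the tetraspanin Cd81 at 241 CPM with and 31.6 without in donor cells, and 527 and 67.6 in recipient cells. Of the leading genes, Psen2 stood at 314 CPM with and 66.9 without in donor cells, and 426 and 33.8 in recipient cells, Atp13a3 at 686 CPM with and 217 without in donor cells, and 928 and 169 in recipient cells and Cxcl12 at 1933 CPM with and 1206 without in donor cells, and 1755 and 1069 in recipient cells. Mgp, Fbln5, Vcam1, Apoe, Cd81 and Psen2 come from a ranking of genes higher in both libraries, as do Rbp7, Postn, Gucy1b1 and Spp1 below. The shared order of these genes was thus set by that choice. Rbp7, a retinol-binding protein, had 58 donor and 70 recipient UMIs in the cells with Fbln2 or Olfm2 and 0 in the others. Of the 8 pericyte markers, Postn, Gucy1b1 and Cox4i2 were higher with Fbln2 or Olfm2 as well, and the others are not given across the split. Postn had 17 UMIs with and 1 without in donor cells and 38 and 3 in recipient cells, Gucy1b1 23 and 2, and 45 and 3, and Cox4i2 37 and 8, and 52 and 1. Spp1, osteopontin, stood at 217 CPM with and 40.9 without in donor cells, and 2262 and 60.9 in recipient cells. The part of pericyte RNA in the split was not tested.

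Genes lower with Fbln2 or Olfm2 include those of general capillary cells. Kit, the stem cell factor receptor, stood at 91 CPM with and 255 without in donor cells, and 40.1 and 304 in recipient cells. General capillary cells held 318 and 291 CPM, near the cells without either gene. Gpihbp1, which anchors lipoprotein lipase to capillary endothelium, stood at 1406 CPM with and 2418 without in donor cells, and 757 and 2895 in recipient cells, against 2303 and 2120.4 in general capillary cells. Glp1r, the receptor of glucagon-like peptide, stood at 88.7 CPM with and 260.2 without in donor cells, and 100.3 and 453 in recipient cells, and the secreted semaphorin Sema3c at 181 CPM with and 398 without in donor cells, and 135 and 399 in recipient cells. Kit and Gpihbp1 belong to the gate of the general capillary class, so their values there are set by that gate. Kit, Glp1r and Sema3c come from a ranking of genes lower in both libraries, so their shared order was set by that choice. Gja4 stood at 924 CPM with and 725 without in donor cells, and 627 and 616 in recipient cells, and Sema3g at 399 CPM with and 459 without in donor cells, and 321 and 386 in recipient cells, closer to even.

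The cells with Gja5 and Bmx alone held levels of Kit, Gpihbp1 and Mgp near the capillary ones, which makes the label arterial less certain for them. Kit and Gpihbp1 belong to the capillary gate, and Kit and Mgp were picked from the ranking of this split. Mgp rests on 3 donor and 16 recipient UMIs in these cells. The levels are thus a description and do not decide the label. The Atp13a3 level of these cells, 217 and 169 CPM, was above the 27.9 and 37.6 CPM of general capillary cells. Of the 51 genes at least 2-fold above every other class, 46 were among the 72 that met this criterion in the cells with Fbln2 or Olfm2, and 9 were among the 12 that met it in the cells with neither. Summing over fewer cells also leaves fewer UMIs behind each ratio.

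**Figure D2:**
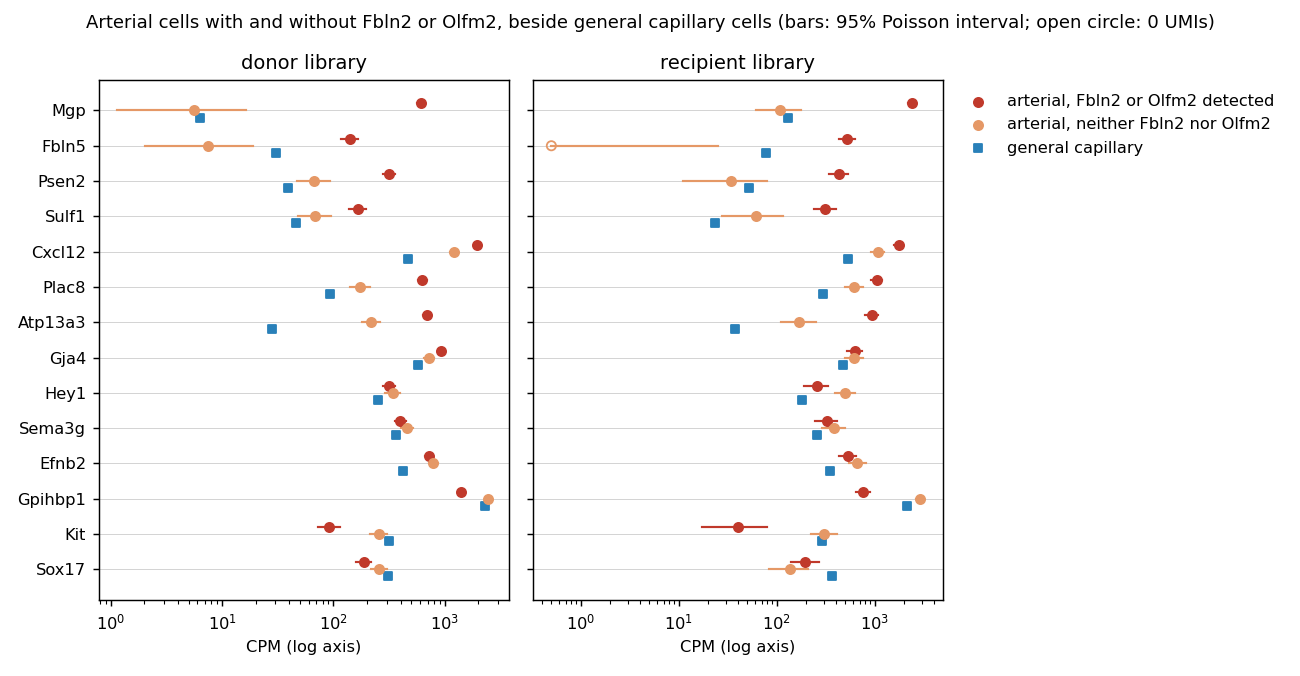
Level (CPM, log axis) of genes in arterial cells with Fbln2 or Olfm2 and in those with neither, by library, with the general capillary level beside them; bars are exact 95% intervals of counting error and an open circle marks a group with 0 UMIs. Mgp stands at 612 and 5.58 CPM in the donor cells with and without, and Kit lies the other way at 91 and 255.

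Markers of other cells were present in some arterial cells. At least 3 markers of another cell class were found in 28 of 177 donor and 10 of 46 recipient arterial cells. In the donor library 15 of these held aerocyte markers, at a median depth of 16403 UMIs, and 16 held alveolar type 1 cell markers. In the recipient library 9 held alveolar type 1, 3 pericyte, 2 fibroblast and 1 aerocyte markers. Summed over its list, the aerocyte level was 2249.9 CPM in donor and 752 CPM in recipient arterial cells, the pericyte level 85.3 and 645, and the alveolar type 1 level 1282 and 564. Red cell and platelet markers summed to 23.7 and 274 CPM and fibroblast markers to 13.6 and 184 CPM. Of 8 leukocyte markers 7 were at 0 in both libraries, and Ptprc, the gene of CD45, is among them. Of 8 lymphatic markers Prox1, the defining lymphatic factor, and Fxyd6 were at 0 in both. The lymphatic list summed to 654 and 869.7 CPM, mainly Lyve1 with 800 and 275 UMIs, against 437 and 2880.3 CPM in general capillary cells. The part of these markers in the differences between the libraries was not tested, and the counts without such cells are given beside those differences.

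Between the libraries, 177 of 5351 genes (3.31%) were at least 2-fold higher in donor and 94 (1.76%) at least 2-fold higher in recipient arterial cells. The median ratio of all 5351 genes was near even, at 0.03 on the log2 scale. Without the cells that held 3 or more of the aerocyte genes Car4, Ednrb, Fibin and Apln, 115 genes were at least 2-fold higher in the donor direction. Without cells that held 3 or more genes of either capillary gate, 77 were higher in the donor and 35 in the recipient direction. Without cells of shared barcode, 62 were higher in the recipient direction. These settings kept 162 donor and 45 recipient cells, 68 and 23, and 174 and 39. Fewer cells leave fewer genes with 50 UMIs, so these counts are not shares of the 5351 genes. A lower count is thus not by itself a sign of fewer differences. The rule for naming genes, at least 50 CPM in the higher library and the interval of the ratio apart from 1.5-fold, was met by 29 genes in the donor and 80 in the recipient direction. In the recipient direction 52 of the 80 had at least as many UMIs in 3 cells as in all the others, against 3 of 29 in the donor direction. The groups are unlike in this respect, since 3 cells are a larger part of 46 than of 177 cells and 50 CPM is fewer UMIs in the smaller group.

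Sox11, a SOX transcription factor active mainly in development, was among the genes furthest on the donor side. It had 82 UMIs in 33 donor cells and 1 UMI in the recipient cells. That is 58.8 against 2.88 CPM, a ratio of 20.4 (interval 3.56 to 816). Of its donor UMIs, 69 lay in cells with neither Fbln2 nor Olfm2. The single recipient UMI lay in a cell of shared barcode, and without such cells the log2 ratio is a lower bound of 2.20 in place of 4.35. Among cells with at least 3 of the 4 rule genes, its log2 ratio was 0.59. The interval of the ratio is wide because the recipient side holds a single molecule.

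Further genes named on the donor side had UMIs in many donor cells. Lpl, lipoprotein lipase, stood at 454 CPM in donor and 112 CPM in recipient cells, a ratio of 4.04 (interval 2.92 to 5.74), with UMIs in 132 of 177 and 18 of 46 cells. Cd24a, a surface glycoprotein, stood at 205 and 46.1 CPM, a ratio of 4.45 (interval 2.69 to 7.89), in 98 and 7 cells. Tspan8, a tetraspanin, stood at 267 and 60.5 CPM, a ratio of 4.41 (interval 2.84 to 7.21), in 118 and 9 cells. Casc4 stood at 127 and 25.9 CPM, a ratio of 4.89, in 87 and 7 cells. Mfap2, a microfibril protein, stood at 125 and 31.7 CPM (ratio 3.96), Lmo7 at 135 and 34.6 (ratio 3.92), and Fgf1, a fibroblast growth factor, at 58.8 and 14.4 (ratio 4.08). In general capillary cells of the same libraries the donor over recipient ratio was 10.8 for Sox11, 9.29 for Casc4, 4.78 for Cd24a, 3.72 for Tspan8, 3.19 for Lpl and 2.65 for Mfap2, but 1.05 for Lmo7 and 0.994 for Fgf1. In aerocytes it was 3.77 for Sox11, 3.73 for Lpl and 2.26 for Casc4, and near even or lower for Cd24a (1.06), Mfap2 (0.994), Tspan8 (0.979), Fgf1 (0.947) and Lmo7 (0.87). Tspan8, Cd24a, Fgf1 and Lmo7 were higher in donor aerocytes than in donor arterial cells, at 609, 385, 273 and 254 CPM. Of 9 aerocyte markers 8 were at least 1.5-fold higher in donor arterial cells (median log2 ratio 1.63), against 15.4% of all 8318 measured genes. Their part in these results was not tested, and the differences between classes were not tested.

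A further 3 donor genes lay in few cells. Fabp4, a fatty acid binding protein, had 215 donor and 0 recipient UMIs, at least 17.8-fold higher against a floor of 3 UMIs over the group, with 189 in 3 cells. Ager, an alveolar type 1 cell gene, had 269 of 292 donor UMIs in 3 cells, and its direction turned when cells with markers of other classes were left out, at a log2 ratio of -0.32 in place of 2.18. Gprc5a, another lung epithelial gene, had 50 of 81 donor UMIs in 3 cells. Outside the naming rule and picked after their values were seen, Wif1, a secreted Wnt inhibitor, had 61 UMIs in 33 donor cells and 0 in the recipient cells (at least 5.06-fold higher), and Tmem221 had 62 in 41 cells and 0 (at least 5.14-fold higher). Of the Wif1 UMIs 51 lay in cells with neither Fbln2 nor Olfm2.

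Of the 12 genes named on the recipient side, Pf4, Ppbp, Itga2b and Plek are genes of platelets and their precursors, and Pdgfrb and Myl9 of pericytes and smooth muscle. For every one of the 12 except Scgb1a1, 3 cells held 90% or more of the recipient UMIs. All 58 Pf4 UMIs lay in 2 recipient cells, as did all 36 Ppbp UMIs and all 22 Itga2b UMIs. For Pdgfrb 38 of 40 UMIs lay in 3 cells, and 37 of them in cells of shared barcode. Cstdc2, Nupr1, Fst, Ccn3 and Nrgn completed the set with Scgb1a1, the club cell secretory protein. Scgb1a1 had 26 UMIs in 22 recipient cells and 5 in the donor cells, 20.9-fold higher (interval 7.9 to 69.7). It was also higher in recipient general capillary cells, at a donor over recipient ratio of 0.173, and is a gene of airway epithelium. RNA free in the droplets cannot be told apart from expression for it.

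Recipient-side genes that were spread over many cells were picked after the values were seen. Ifi204, an interferon-inducible DNA sensor of the PYHIN family, stood at 76.7 CPM in donor and 418 CPM in recipient cells. It was 5.45-fold higher in the recipient cells (interval 4.21 to 7.06), with UMIs in 38 of 46 recipient and 43 of 177 donor cells. Gsn, the actin-severing protein gelsolin, stood at 19.4 and 149.8 CPM, 7.74-fold higher in the recipient cells (interval 4.77 to 12.8). It had a like level in recipient venous and general capillary cells, at 151 and 149 CPM, and stood at 8926 CPM in recipient cells without Cdh5, so that RNA free in the droplets cannot be told apart from expression. Gas6, a ligand of TAM receptors, stood at 44.4 and 190.1 CPM, 4.28-fold higher (interval 2.98 to 6.15). It had UMIs in 18 of 46 recipient cells, with 32 of 66 UMIs in 3 cells. Cd81 stood at 161 and 331 CPM, 2.06-fold higher, with UMIs in 23 recipient cells. Gas6 and Cd81 stood at 346 and 1773 CPM in recipient cells without Cdh5. RNA free in the droplets cannot be told apart from expression for them either. In general capillary cells the donor over recipient ratio of Ifi204 was 0.111 and that of Gsn 0.129. Both genes were thus also higher on the recipient side in general capillary cells. In venous cells the ratio was 0.484 for Ifi204 and 0.154 for Gsn. In aerocytes Ifi204 was near even, at 165 CPM in donor and 158 CPM in recipient cells (ratio 1.05), while the ratio of Gsn was 0.126.

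**Figure D3:**
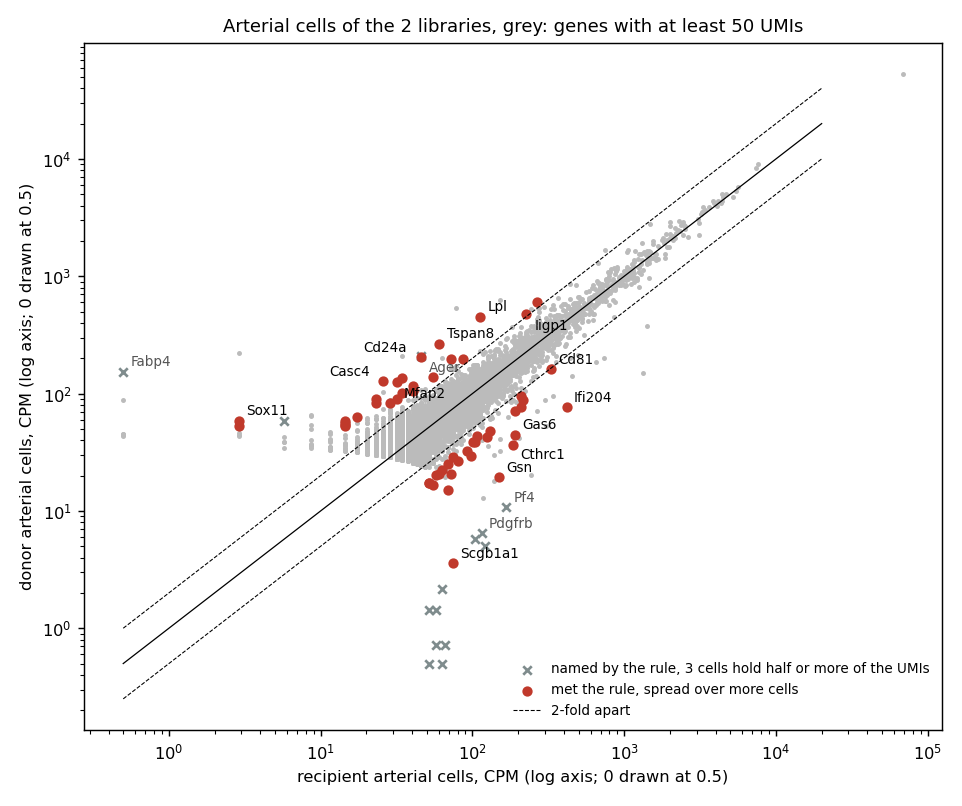
Level of each gene in recipient (x axis) and donor (y axis) arterial cells, CPM on log axes, with grey points for genes with at least 50 UMIs, red points for genes that met the naming rule and crosses for named genes of which 3 cells hold at least 50% of the UMIs; the dashed lines mark 2-fold. Lpl and Tspan8 lie above the upper dashed line at 454 against 112 and 267 against 60.5 CPM in donor and recipient cells, and Ifi204 lies below the lower one.

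Genes of antigen presentation by MHC class II were higher in donor arterial cells. Endothelium of the lung can carry these molecules, which present peptides to helper T cells. Of 7 measured genes 5 were at least 1.5-fold higher in donor and 0 in recipient cells, against 15.4% and 12.3% of all 8318 measured genes, with a median log2 ratio of 0.81 against 0.02 for all genes. The invariant chain Cd74 stood at 2777 CPM in donor and 1480.3 CPM in recipient cells, 1.88-fold (interval 1.71 to 2.06). H2-Ab1 stood at 860.1 and 438 CPM, 1.96-fold (interval 1.66 to 2.34). H2-Eb1 stood at 648 and 366, H2-Aa at 568 and 339.8, and H2-DMa at 176 and 101 CPM. The list's median was 0.67 in general capillary cells, 1.49 in venous cells and 2.07 in aerocytes. Without cells of shared barcode the arterial median was 0.42 and the log2 ratio of Cd74 0.54 in place of 0.91. Without the cells with markers of other classes the median was 0.93. MHC class I genes were close to even, with a median of 0.07 over 15 genes, 0 at least 1.5-fold higher in donor and 1 in recipient cells.

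Interferon response genes leaned the same way. Of 33 measured, 16 were at least 1.5-fold higher in donor and 2 in recipient cells, against 15.4% and 12.3% of all 8318 measured genes. The median log2 ratio was 0.51. Iigp1, an immunity-related GTPase, stood at 477 CPM in donor and 225 CPM in recipient cells, 2.13-fold (interval 1.68 to 2.72). Irf9, a subunit of the type I interferon signalling complex, stood at 64.5 and 23 CPM, Ifit3 at 73.8 and 28.8, and the ubiquitin-like Isg15 at 311 and 202. The chemokine Cxcl10 lay the other way at 19.4 and 63.4 CPM. The donor direction of the list's median was kept in the cells with Fbln2 or Olfm2 (0.57) and in those with neither (0.56).

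The PYHIN family, interferon-inducible genes in 1 cluster, did not move as a block. Of 7 measured, 4 were at least 1.5-fold higher in donor and 2 in recipient cells, against 15.4% and 12.3% of all 8318 measured genes. Ifi208 had 64 donor UMIs and 1 recipient UMI, a ratio of 15.9 (interval 2.76 to 639). Mndal stood at 163 and 72 CPM, 2.26-fold, while Ifi203 stood at 223 and 337, and Ifi204 was higher in the recipient cells as above. Ifi206 and Ifi213 had 24 and 28 donor UMIs and 0 recipient UMIs. These genes are near-identical copies between which reads can be split, so their single values are uncertain, and the family's median of 0.99 changed sign under other settings.

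**Figure D4:**
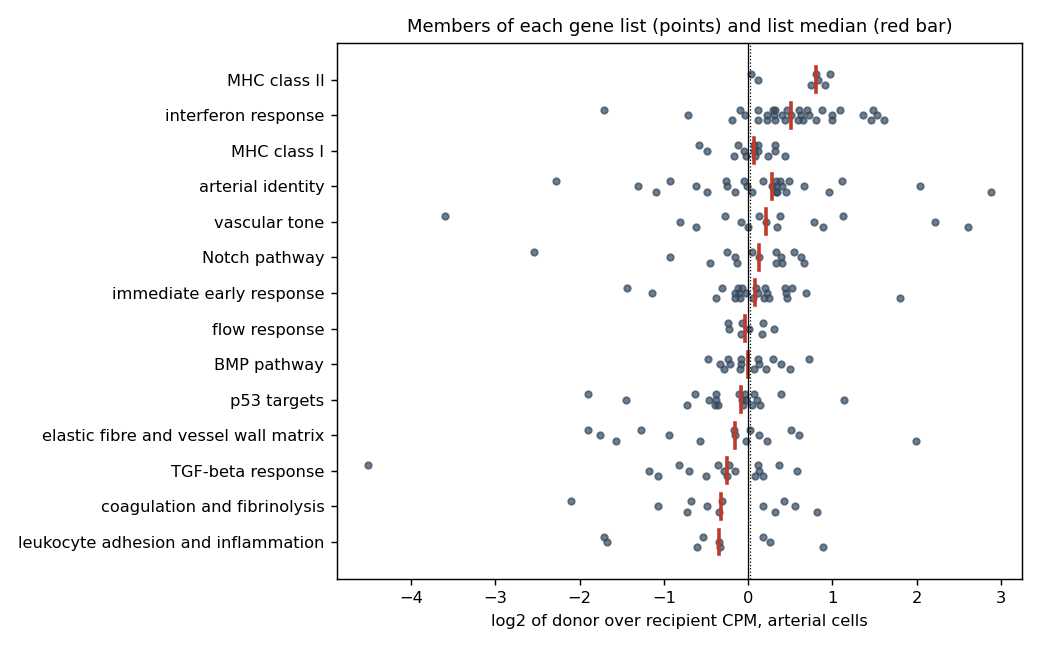
Log2 ratio of donor over recipient CPM for each measured gene of the lists named on the axis (points) with the list's median (bar), 1 row per list; the solid line at 0 marks equal levels and the dotted line the median of all measured genes. MHC class II and interferon response medians lie at 0.81 and 0.51, and flow response at -0.03.

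Several vessel wall, adhesion and stress genes were higher in the recipient cells, a number of them through few cells. The lists are to be read against the 15.4% of all measured genes at least 1.5-fold higher in donor and the 12.3% in recipient cells. Of 15 elastic fibre and wall matrix genes 2 were at least 1.5-fold higher in donor and 5 in recipient cells (median log2 ratio -0.16). Mgp was 3.73-fold higher in the recipient cells (interval 3.29 to 4.22) and Fbln5, at 88.9 and 299.5 CPM, 3.37-fold (interval 2.57 to 4.41). Cells without Cdh5 held Mgp at 1418 CPM in the donor and 8865 CPM in the recipient library. RNA free in the droplets cannot be told apart from expression for Mgp, whose log2 ratio was -1.68 with free RNA subtracted. The 7 recipient cells of shared barcode held 369 of the 490 Mgp and 64 of the 104 Fbln5 UMIs. Without them the log2 ratio of Mgp went from -1.90 to -0.30 and that of Fbln5 from -1.75 to -0.79. Elastin (Eln) stood at 108 and 121 CPM.

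Of 9 leukocyte adhesion and inflammation genes, 1 was at least 1.5-fold higher in donor and 3 in recipient cells. Vcam1 stood at 141 CPM in donor and 452 CPM in recipient cells, 3.2-fold higher in the recipient cells (interval 2.58 to 3.97), with 89 of 157 recipient UMIs in 3 cells. Icam1, the other main leukocyte receptor, lay the other way at 550.5 and 297 CPM, 1.86-fold higher in the donor cells (interval 1.51 to 2.3). The adhesion genes were thus not higher together in either library. Of 20 p53 targets 1 was higher in donor and 4 in recipient cells (median -0.09). Gdf15, a stress-induced growth factor, stood at 71.7 and 268 CPM, 3.74-fold higher in the recipient cells (interval 2.79 to 5.01), with 63 of 100 donor and 53 of 93 recipient UMIs in 3 cells. Cdkn1a, the cell cycle inhibitor p21, stood at 897 and 1166 CPM. Of 17 TGF-beta response genes 0 were higher in donor and 5 in recipient cells (median -0.25).

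Arterial identity genes differed in both directions. Of 27 measured, 5 were at least 1.5-fold higher in donor and 5 in recipient cells, against 15.4% and 12.3% of all genes, and their median log2 ratio was 0.28 against 0.02. Vegfc, a growth factor of lymphatic vessels, had 89 donor and 3 recipient UMIs, a ratio of 7.38 (interval 2.45 to 36.5). Stmn2, a microtubule regulator, stood at 538 and 276 CPM, and Edn1, the vasoconstrictor endothelin, at 813 and 1244, 1.53-fold higher in the recipient cells (interval 1.37 to 1.71). Atp13a3 was 0.836 of the recipient level in the donor cells (interval 0.715 to 0.979). For Notch pathway genes 2 of 15 were higher in each direction (median 0.13), for the BMP pathway 1 of 16 in donor and 0 in recipient cells (-0.01), and for SOX and ETS factors 1 of 19 in each (0.01).

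Genes that answer to blood flow were even. Klf2, the main flow-induced factor, was detected in all 177 donor and 46 recipient arterial cells, at 2512 CPM in donor and 2506 CPM in recipient cells (ratio 1, interval 0.931 to 1.08), and Klf4 stood at 1121 and 1322. None of the 8 flow response genes reached 1.5-fold in either direction (median -0.03). Of 15 vascular tone genes 5 were higher in donor and 3 in recipient cells (median 0.22). Ace, angiotensin-converting enzyme, stood at 1995 and 1541 CPM. Ednrb, an endothelin receptor and aerocyte gene, stood at 211 and 34.6 CPM, 6.1-fold, and moved with the aerocyte markers. Of 12 coagulation and fibrinolysis genes 1 was higher in donor and 4 in recipient cells (median -0.33). Von Willebrand factor (Vwf) stood at 1922 and 1307 CPM, Plat at 344 and 481, and thrombomodulin (Thbd) at 770.5 and 679.7.

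The donor arterial cells held RNA of both sexes. Xist, the RNA of the inactive X chromosome and a marker of female cells, was detected in 32 of 177 donor arterial cells (18.1%, interval 12.7 to 24.6) and in 1 of 46 recipient cells. Of the donor cells 24 held Xist and no Y-linked transcript, 115 a Y-linked transcript and no Xist, 8 both and 30 neither. Xist was found in 16% of donor general capillary cells, 11.3% of venous cells and 3.11% of aerocytes. Donor cells marked by Xist and donor cells marked by Y-linked transcripts were thus both present. In the recipient library 27 of 46 arterial cells held a Y-linked transcript and no Xist, and 18 held neither. The same was found in 295 of 425 recipient general capillary cells for a Y-linked transcript without Xist. Xist was detected in 0 of 425 recipient general capillary and 0 of 87 venous cells, which, at 3 counts of the total, allows shares of cells with a Xist UMI of up to 0.706% and 3.45%.

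The levels of 5 genes that differed between the libraries are given for both sets of donor arterial cells, as a description. Sox11 stood at 78.2 CPM in donor cells with Xist, 49.6 in those with Y-linked transcripts and no Xist, and 2.88 in recipient cells. Ifi208 stood at 54.4, 46.3 and 2.88 CPM. Ifi204 stood at 57.8, 84.9 and 418 CPM. Cd74 stood at 3235, 2605 and 1480.3, and Iigp1 at 728, 418 and 225. For these 5 genes the recipient cells lay outside the range of both donor sets. The genes were picked because the libraries differed, and both sets are parts of the donor cells. That outcome was thus largely set in advance, and a part of donor sex was not tested. With donor cells limited to those with Xist, the log2 ratio of Ager was -0.59 in place of 2.18 and the PYHIN median -0.43 in place of 0.99. Cells with Fbln2 or Olfm2 had Xist in 18 of 100 donor cells and cells with neither in 14 of 77. Donor origin, the sort and the library cannot be told apart with 1 library each.

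**Figure D5:**
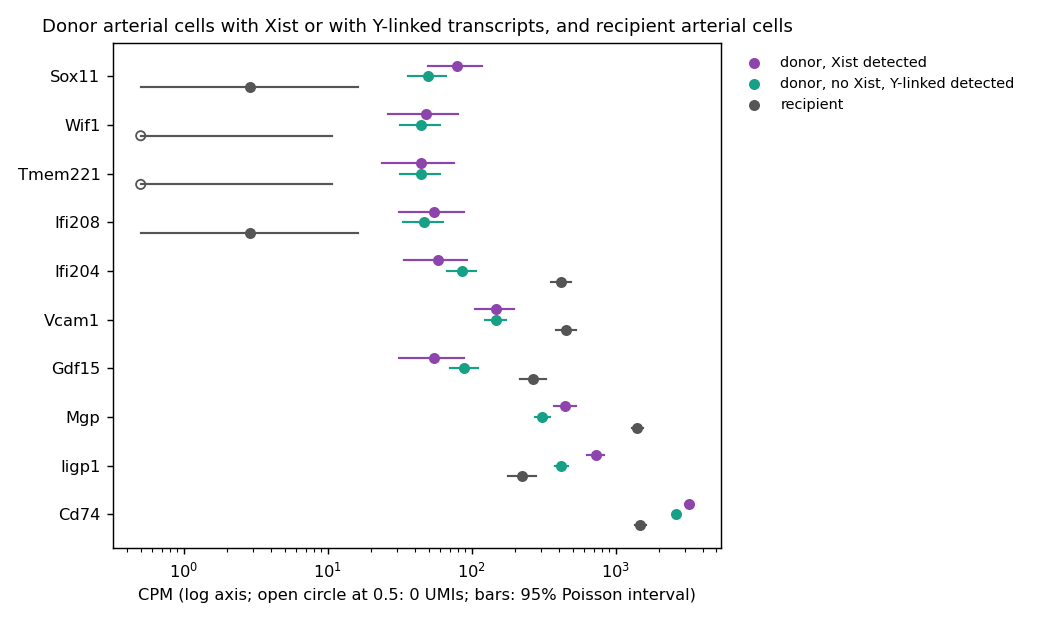
Level (CPM, log axis) of named genes in donor arterial cells with Xist, donor arterial cells with Y-linked transcripts and no Xist, and recipient arterial cells, with exact 95% intervals of counting error; an open circle marks 0 UMIs. For Ifi204 both donor sets lie near each other, at 57.8 and 84.9 CPM, below the recipient cells at 418.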

How the data were processed

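RNA was measured in cells of 2 sorted libraries, 1 for donor and 1 for recipient cells, by 10x Genomics droplet sequencing. The deposited values are whole-number counts, UMIs per gene and barcode, not normalized. The authors made the count matrices by alignment to the mm10 genome, and Cell Ranger 4.0.0 is named in the submitters' processing notes and the file headers, while the labels' protocol gives another version. Strand use in counting is not given in the sources used here.

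Barcodes with at least 1000 UMIs and under 7% mitochondrial UMIs were kept, and of 816 barcodes found in both libraries only the copy with more UMIs (736 donor and 80 recipient copies left out). UMIs were summed per gene, cell class and library and divided by the class total to give CPM. Shares have Clopper-Pearson intervals, levels Poisson intervals and ratios conditional intervals, all exact at 95% and for counting error only. With 1 library per group no test across samples exists. A ratio against 0 UMIs is a lower bound against 3 UMIs over the group.

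Named between the libraries were up to 12 genes each way with at least 50 CPM in the higher library, 2-fold apart, an interval of the ratio that excludes 1.5-fold and an arterial level of at least 20% of that in any other compared class of the library. List members were named for their role or when 1.5-fold apart. Leading genes were up to 20 with at least 100 CPM in arterial cells of both libraries. Mitochondrial, ribosomal, haemoglobin and sex-linked genes and unnamed models were left out of both sets. 1 gene that met the naming rule is not reported here. The members and the gene lists were chosen with earlier results of these data known. List members needed 20 UMIs over the arterial cells of both libraries.

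The automatic doublet caller in scanpy 1.11.5 marked 2 of 6319 donor barcodes (0.0317%), so it had not worked there, and doublets were not removed. Leaving out the highest scores instead (319 donor and 115 recipient barcodes) took 13 and 2 arterial cells. From genes that endothelium lacks, free RNA was estimated at 13.1% and 3.56% of UMIs, with Ager in 3 cells part of the donor value. Python 3.11.15, numpy 2.4.6, scipy 1.17.1 and pandas 2.3.3 were used, and the counting code was tested on simulated data. Alternatives covered cell filters, the rule, shared barcodes, doublet scores, thinning, equal weight per cell, centring, free RNA and UMI minimums.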

Additional observations from a re-analysis of the deposited data

How the results depend on the processing

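No paired analysis was possible because each group has 1 library and the labels give no replicate numbers. The arterial share was 1.11% in donor and 0.985% in recipient cells when 3 of the 4 genes were asked for, with the order of the libraries kept. After thinning to 2000 UMIs it was 1.24% and 1.77%, and the order turned, on 56 donor and 23 recipient cells. The count of genes at least 2-fold higher in donor arterial cells (177) was 511 at a minimum of 20 UMIs, 24 at 200 and 77 without cells holding 3 or more capillary genes. In the recipient direction (94) these counts were 362, 13 and 35, and 62 without cells of shared barcode. Of the alternatives chosen after seeing the data, the donor count was 115 without cells with aerocyte markers, 47 with donor cells limited to those with Xist and 99 in cells with neither Fbln2 nor Olfm2, and the recipient count 57 and 38 under the last 2 of these. Fewer cells and a higher UMI minimum leave fewer genes to count. These counts thus have unlike totals, and a lower count is not by itself a sign of fewer differences. The number of genes 2-fold above every other endothelial class (51) was 12 in cells with neither gene.

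The PYHIN median turned from 0.99 to -0.26 when 3 of the 4 genes were asked for, -0.074 and -0.60 at higher UMI minimums for its members, -0.49 without cells with capillary genes and -0.43 with donor cells limited to those with Xist. The pericyte median turned from -3.01 to 0.57 without cells of shared barcode. For Ager the log2 ratio turned to -0.79 without cells with capillary genes, -0.73 without those with aerocyte markers, -0.32 without all cells with markers of another class, -0.59 with donor cells limited to those with Xist and -0.20 in cells with neither Fbln2 nor Olfm2. The causes were not tested.

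Among the directions that held under every alternative run for them were those of the MHC class II median (0.42 to 1.73), the interferon median (0.31 to 0.75), Lpl (log2 ratio 1.52 to 3.99), Ifi204 (-3.47 to -1.71) and Vcam1 (-2.95 to -1.35). The 46 recipient cells and 347230 UMIs set the precision of every ratio.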

Other observations

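Immediate early genes, which respond within minutes to stimuli, were close to even between the libraries. Of 24 measured, 2 were at least 1.5-fold higher in donor and 2 in recipient arterial cells (median log2 ratio 0.08), and Fos stood at 2896 and 2431 CPM. Over all 8318 measured genes 15.4% were that much higher in donor and 12.3% in recipient cells. Of 9 lipid handling genes 2 were higher in donor and 0 in recipient cells (median 0.15). Of 5 measured cell cycle genes 2 were higher in donor and 1 in recipient cells (median 0.52), on few UMIs each. Among connexins, Gja4 and Gja5 were within 1.5-fold of even, at 1.36 and 1.24 for donor over recipient.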
